A study of Mus musculus with 10 samples.

Results

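Wild-type (WT) zygotes were compared with sperm of the CAST/EiJ strain, the father's strain, over 100-bp tiles of the autosomes. A tile was used when it held at least 10 counts in each of 4 libraries, sperm replicates 1 and 2 and WT zygote replicates 1 and 2. This left 21736 of the 145445 autosomal tiles with any count in these libraries, out of 186603 tiles with any count in the whole series. Sperm, zygotes and blastocysts were profiled by RRBS (reduced representation bisulfite sequencing), in which DNA is cut with MspI and CpG-rich fragments are read. The zygotes came from C57BL/6J eggs of superovulated females aged 7 to 10 weeks, fertilised in vitro by sperm of adult CAST/EiJ males. They were collected 13 h after fertilisation, 40 to 50 to a library, and both zygote libraries are WT by genotype, as is the sperm. Embryos of the genotype maternal Tet3 KO, named CKO in the labels, and blastocysts of both genotypes at 96 h, 4 to a library, were read only as side values. The replicates are biological duplicates by the labels, which do not say whether the sperm replicates came from different males.

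Sperm DNA is heavily methylated outside CpG islands, and most CpG islands are unmethylated. After fertilisation the paternal genome loses much of its methylation before the embryo cleaves. Loss is known to occur by oxidation of 5-methylcytosine, for which the egg supplies the dioxygenase Tet3, and by dilution when DNA is replicated without maintenance methylation. Bisulfite sequencing reads 5-methylcytosine and its oxidation product 5-hydroxymethylcytosine alike as methylated, so the levels below hold the sum of both. Whether embryo reads were split into CAST/EiJ and C57BL/6J alleles is not stated in the labels. The imprinted regions below show which parent's pattern the zygote libraries hold there, and no such reading was made at other tiles. Loss below therefore names a lower level in zygote than in sperm libraries, and the share kept is the ratio of these levels.

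The labels were checked at 13 imprinted regions, where 1 parental allele stays methylated in the embryo. Counts were present in 10 of them. Their places in the mm9 build were taken from background knowledge, since no mm9 annotation was at hand. The paternally methylated Dlk1-Gtl2 region (chromosome 12, positions 110767308 to 110768128) was methylated in 22 of 22 and 20 of 20 sperm counts and in 16 of 16 and 10 of 10 WT zygote counts. H19/Igf2, also methylated on the paternal allele, had 8 of 8 and 8 of 12 methylated counts in sperm and 16 of 16 in WT zygote replicate 1, with no count in replicate 2. Of the 7 maternally methylated regions with zygote counts, 6 had under 2% methylated counts in WT zygotes, the pattern of the paternal allele. Sperm did not match that pattern at 2 of them. Grb10 had 0 of 148 methylated counts in sperm replicate 1 but 25 of 98 in replicate 2, and Zrsr1 had 10 of 72 and 6 of 53. Mest had no sperm count, so sperm could not be read there. The zygote counts of Mest (33, replicate 2) and Kcnq1ot1 (196, replicate 1) came from 1 library each. Snrpn, which is methylated on the maternal allele, was the exception, and both of its tiles passed the test described below. The tile at 67149401 to 67149500 of chromosome 7 was at 0% in both sperm libraries and at 18.8% and 30.0% in the WT zygote libraries (edgeR, adjusted p = 0.0472). The adjacent tile at 67149501 to 67149600 was at 0% in both sperm libraries and at 33.3% and 37.5% in WT zygotes (adjusted p = 0.0427).

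Library totals were 2535229 and 2315949 counts in sperm and 1456713 and 1233982 in WT zygotes. The median count per tile was 50 and 45 in the sperm libraries and 30 and 25 in the zygote libraries. The median tile held 2 CpGs with counts, and 5102 tiles (23.5%) held 1. A tile count sums over cytosine positions and 1 read can add to several of them, so only in the 4887 tiles with a single position is it a number of reads.

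Tiles methylated in sperm were lower in both WT zygote libraries. The level of the 6817 tiles at 80% or more in both sperm replicates (31.4% of all tiles) was 96.7% and 96.8% in the sperm libraries and 59.3% and 59.2% in the zygote libraries. The means were 96.8% ± 0.0276 (SD, n = 2) in sperm and 59.2% ± 0.0744 (SD, n = 2) in WT zygotes. The difference was -37.5 ± 0.0794 points (SD), far beyond the replicate spread. The exact two-sided permutation p over libraries was 0.333, and no smaller value is possible with 2 libraries a group. The class was set on sperm, so the sperm level is fixed by the choice, and what is measured is the level in zygotes. With the class set on 1 sperm replicate and the sperm level read in the other, the difference was -37.0 and -36.9 points.

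Tiles unmethylated in sperm stayed low, with a slightly higher mean in zygotes. The 10972 tiles at 10% or less in both sperm replicates (50.5% of all tiles) averaged 0.530% ± 0.0112 (SD, n = 2) in sperm and 2.03% ± 0.0891 (SD, n = 2) in WT zygotes. The difference was 1.5 ± 0.0898 points (SD), which is also beyond the replicate spread (exact permutation p = 0.333, the smallest possible). Most tiles did not share in it, as the median difference over the class was 0. No methylated count was held by 82.0% of the tiles in either zygote library and by 70.3% in either sperm library. The sperm libraries are deeper, and the part of depth in these shares was not tested. The remaining 3947 tiles, which are in neither class, averaged 46.3% ± 0.876 in sperm and 28.8% ± 0.184 in WT zygotes (SD, n = 2 each). Over all tiles the mean was 39.0% ± 0.162 in sperm and 24.8% ± 0.102 in zygotes (SD, n = 2 each), so the tiles differed by -14.2 points. This last value depends on which tiles weigh most and was -9.22 points with counts pooled over tiles, -9.40 points at a count minimum of 20 and -17.2 points at a minimum of 5.

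**Figure D1:**
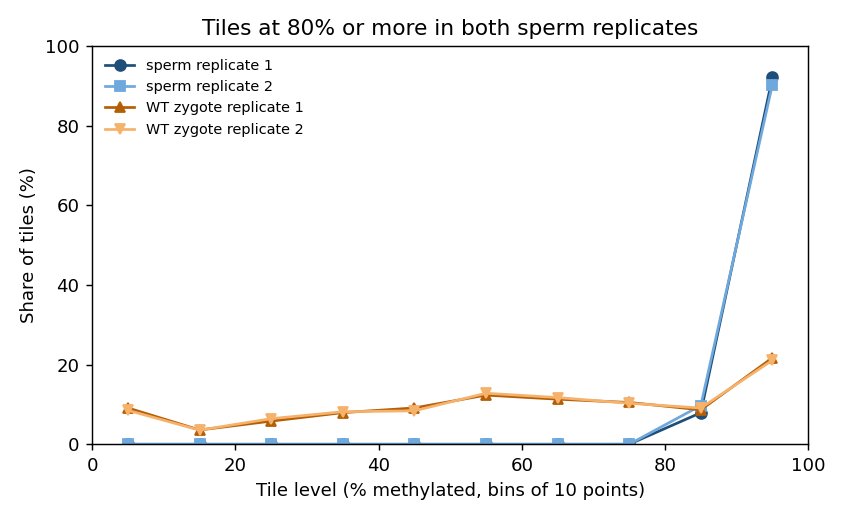
Share of the 6817 tiles methylated in sperm (vertical axis, %) by tile level (horizontal axis, % methylated, in bins of 10 points), with a line for each of the 4 libraries. Sperm tiles lie at the right by the choice of the class, while both zygote libraries spread over the whole range with medians of 61.5% and 61.1%.

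Zygote levels at these sperm-methylated tiles covered the whole range. In WT zygote replicate 1 the quartiles were 37.5% and 85.2% with a median of 61.5%, and in replicate 2 they were 37.5% and 84.2% with a median of 61.1%. Tiles at 20% or less made up 13.2% and 13.1% of the class in the 2 zygote libraries, and tiles at 80% or more made up 30.3% and 30.2%. Tiles without any methylated count made up 7.44% and 6.98%, and tiles without any unmethylated count made up 17.3% and 16.1%. The plot of tile levels by library shows that the 2 zygote libraries have almost the same distribution.

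Loss was close to proportional to the level that sperm had. In the bin of 10 to 20% mean sperm level, 492 tiles averaged 14.6% ± 1.05 in sperm and 9.10% ± 0.301 in WT zygotes (SD, n = 2 each). In the bin of 40 to 60%, 1260 tiles averaged 49.2% ± 0.646 in sperm and 30.2% ± 0.846 in WT zygotes. In the bin of 90 to 100%, 6455 tiles averaged 97.3% ± 0.0756 in sperm and 59.5% ± 0.0139 in WT zygotes. The loss in points was 5.51 in the lowest of these bins, 19.02 in the middle one and 37.9 in the highest. The share of the sperm level that was kept was 62.3% ± 3.50, 61.3% ± 1.34 and 61.1% ± 0.0351 (SE) in the same bins.

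The bins between them gave like shares, and over the 6 bins above 10% the share kept ranged from 61.1% to 63.3%. It was 63.1% ± 3.24 in the bin of 20 to 40% (635 tiles), 62.1% ± 0.727 in that of 60 to 80% (1074 tiles) and 63.3% ± 1.16 in that of 80 to 90% (568 tiles), each with its SE. The 80 to 90% bin lay above the 90 to 100% bin by more than its SE, and that difference was not tested. Its sign was not kept with bins set on sperm replicate 1 and sperm read in replicate 2 (60.7% against 61.5%). With the replicates exchanged the shares were 61.8% and 61.4%. A bin set on noisy values drifts towards the middle on a second reading. With bins set on 1 sperm replicate and the sperm level read in the other, the share kept ranged from 56.5% to 69.2% over the 6 bins. Both ends of that range came from bins under 40%, where the 2 readings differed most. In the lowest bin, at 10% or less, 11252 tiles were higher in WT zygotes, with 0.712% ± 0.0183 in sperm and 2.13% ± 0.101 in zygotes (SD, n = 2 each).

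**Figure D2:**
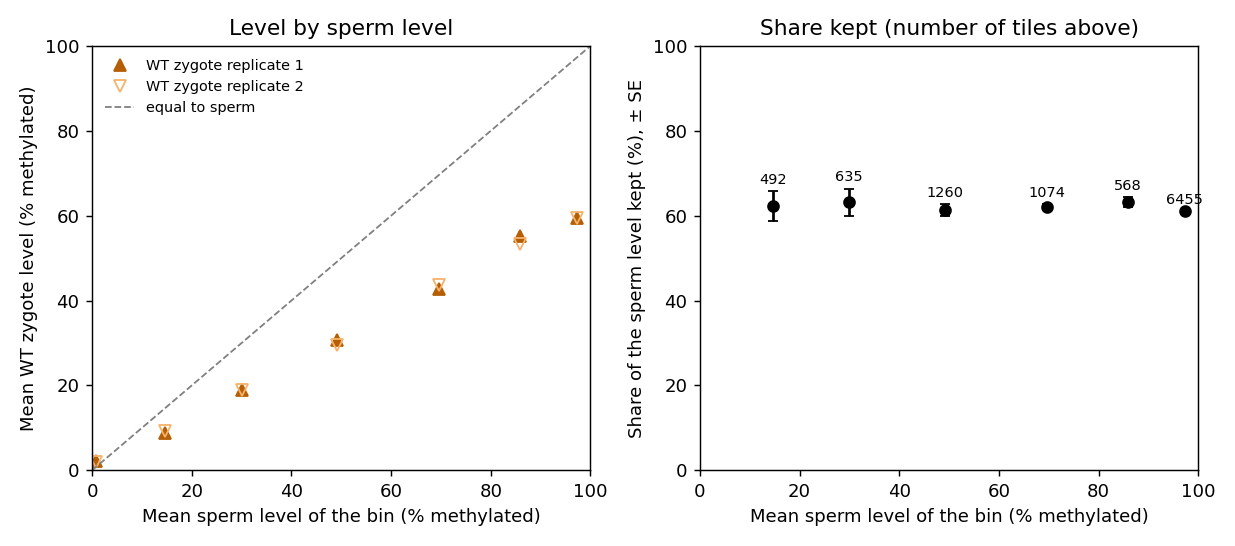
Left: mean WT zygote level (vertical axis, % methylated) against the mean sperm level of 7 bins of tiles (horizontal axis, % methylated), 1 point for each zygote library, with a dashed line where both would be equal. Right: share of the sperm level kept (%, bars are SE, n = 2 libraries a group) for the 6 bins above 10%, with the number of tiles above each point. All 6 shares lie between 61.1% and 63.3%.

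The CpG count of a tile is the number of its CpGs with a count in the 4 libraries. Sperm-methylated tiles of the denser classes had a smaller mean loss in points, with a wide spread between the zygote libraries. The difference was -37.1 ± 0.172 points (SD of the difference) in the 3087 tiles with 1 CpG and -38.4 ± 0.438 in the 3284 tiles with 2 to 3. It was -34.3 ± 3.18 points in the 440 tiles with 4 to 7 CpGs and -33.3 ± 6.25 in the 6 tiles with 8 or more. The spread in the denser classes came from the zygotes, which were at 58.6% and 63.0% in the tiles with 4 to 7 CpGs and at 62.5% and 53.9% in the 6 densest tiles. The loss in tiles with 8 or more CpGs was smaller than that in tiles with 1 to 3 by 4.46 points, less than the SD of 5.97 (exact two-sided permutation p = 0.667). With 6 tiles this value has little precision. It was 0.370 points without WT zygote replicate 1, 8.55 points without WT zygote replicate 2 and 12.1 ± 0.821 points (SD) with counts pooled over tiles. Over 28 single positions in tiles with 8 or more CpGs it was 10.4 ± 4.55 points, but such positions can share a tile and its reads. With the positions of both strands counted separately, which put 33 tiles in the dense class, it was 10.4 ± 3.73 points. The contrast was 1.62 ± 8.25 points (SD) without the deepest 1% of tiles, 4.82 ± 11.3 at a count minimum of 5 and 8.71 ± 9.20 at a minimum of 20. Without the deepest 1%, 5 of the 6 dense tiles remained. The tile left out, on chromosome 1 at 166753301 to 166753400, differed by -19.1 points, and pooled counts give it the most weight. All of these values of the contrast have the same sign, a smaller loss in points in the denser tiles, but several are below their SD. The denser tiles also had lower sperm levels, with means of 97.0%, 96.7%, 95.1% and 91.5% from the class with 1 CpG to that with 8 or more. The share of the sperm level kept in the same classes was 61.7% ± 0.112, 60.3% ± 0.319, 63.9% ± 2.36 and 63.6% ± 4.75 (SE). The part of the sperm level in the contrast was not tested.

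A wider measure of CpG density was also taken. Sperm-methylated tiles with 1 or 2 covered cytosine positions in the surrounding 1000 bp kept 61.1% ± 0.107 (SE) of the sperm level, and those with 3 to 5 kept 61.01% ± 0.141. Those with 6 to 10 kept 62.1% ± 0.871 (538 tiles) and those with 11 or more kept 65.8% ± 2.47 (36 tiles).

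Among tiles unmethylated in sperm, both the level and the difference were smaller where the tile held more CpGs. In tiles with 1 CpG (1214) the level was 0.813% ± 0.0745 in sperm and 2.76% ± 0.220 in WT zygotes (SD, n = 2 each), a difference of 1.94 ± 0.233 points. In tiles with 2 to 3 CpGs (3722) the difference was 1.65 ± 0.152 points and in tiles with 4 to 7 (4620) it was 1.41 ± 0.0538 points. In tiles with 8 or more CpGs (1416) the level was 0.201% ± 0.0216 in sperm and 1.23% ± 0.0598 in zygotes, and these differed by 1.02 ± 0.0636 points. The zygote libraries of a class did not overlap with the sperm libraries in any of the 4 CpG classes. The trend over classes was not tested.

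**Figure D3:**
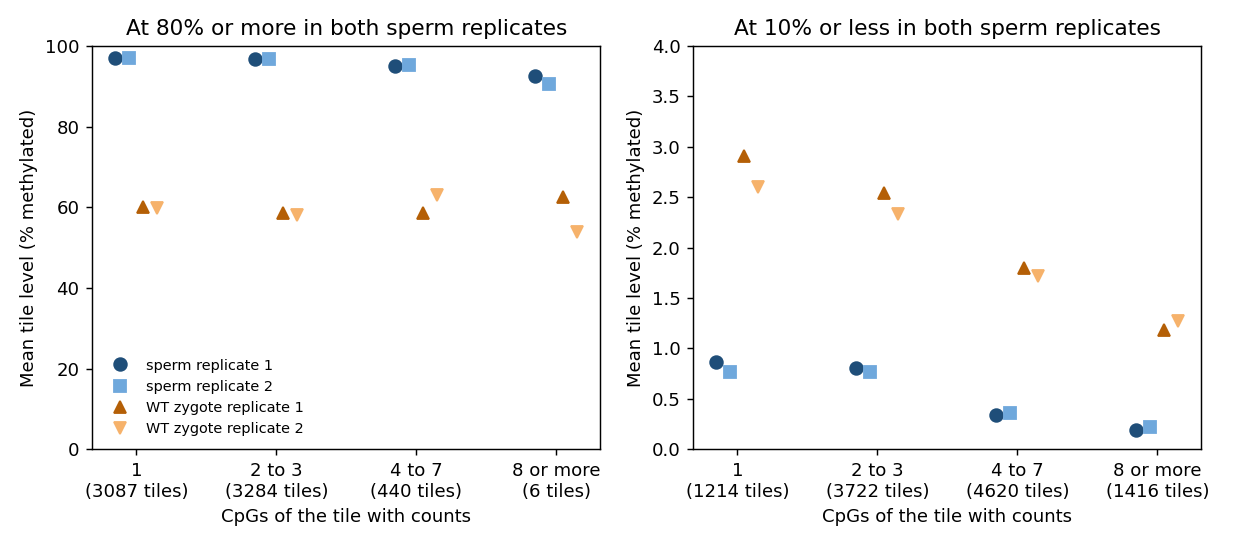
Mean tile level (vertical axis, % methylated) by the number of CpGs of the tile with counts (horizontal axis, number of tiles in brackets) in each of the 4 libraries. Left: tiles methylated in sperm, where the zygote libraries lie between 53.9% and 63.0% in every class. Right, on an axis that ends at 4%: tiles unmethylated in sperm, where zygote levels run from 2.91% at 1 CpG to 1.18% at 8 or more.

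The level of a single sperm-methylated tile differed strongly between the 2 zygote libraries, although their means were alike. The median absolute difference between them was 26.1 points, and across the 6817 tiles their levels had Pearson's r = 0.18. The tiles below 20% in replicate 1 (865 tiles, mean 5.08%) averaged 53.1% in replicate 2. The tiles at 80% or more in replicate 1 (2067 tiles, mean 94.5%) averaged 66.8% in replicate 2. With the roles of the replicates exchanged, the low tiles (821) read 51.1% and the high tiles (2057) read 66.7%. In both directions the gap between low and high tiles was thus far narrower in the second library, but it kept its sign. Both libraries were at 20% or less in 158 tiles (2.32%) and at 80% or more in 860 (12.6%). Each library alone had 13.2% and 13.1% of the tiles at 20% or less and 30.3% and 30.2% at 80% or more. Unrelated libraries with such shares would also have tiles in common at both ends. In 387 tiles (5.68%) 1 library was at 20% or less and the other at 80% or more.

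**Figure D4:**
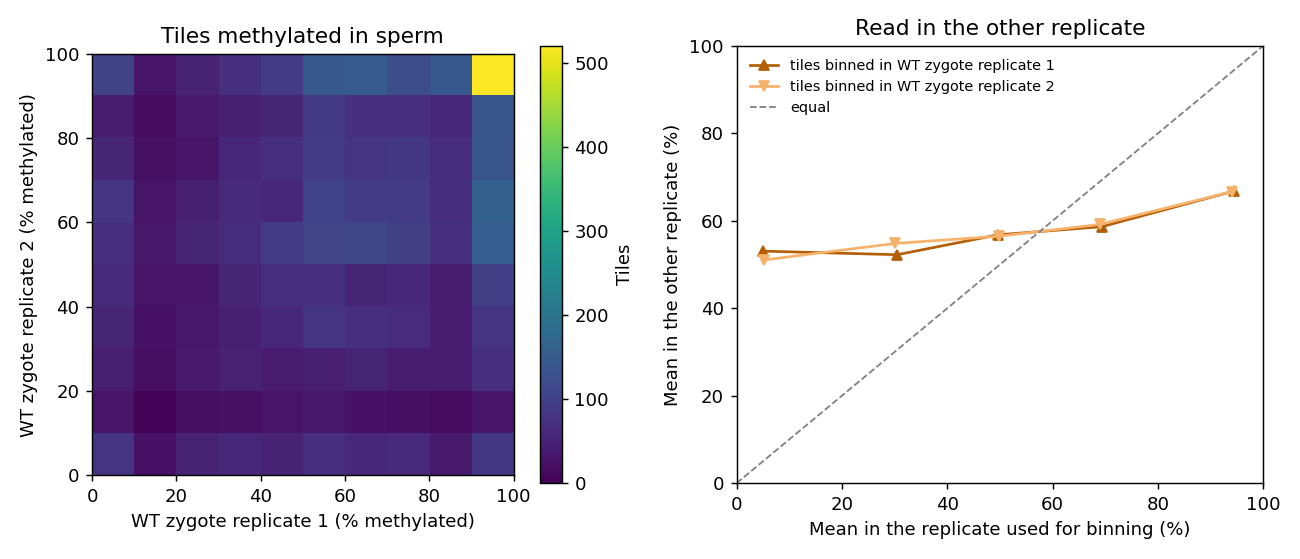
Left: number of sperm-methylated tiles (colour) by their level in WT zygote replicate 1 (horizontal axis, %) and replicate 2 (vertical axis, %), in bins of 10 points. Right: tiles binned by their level in 1 zygote library (horizontal axis, bin mean, %) and read in the other (vertical axis, %), with a dashed line where both would be equal. Both lines are shallow, from 53.1% or 51.1% at the low end to 66.8% or 66.7% at the high end.

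The replicates agreed better at higher counts, with r = 0.15 in the 4305 sperm-methylated tiles whose lower zygote count was 10 to 19, 0.23 in the 2047 tiles at 20 to 39 and 0.31 in the 465 tiles at 40 or more. These are correlations across tiles within the same libraries, and tiles are not independent replicates. In the 2946 sperm-methylated tiles with a single position, where a count is a read, the squared difference between the zygote libraries was 6.51 times what binomial sampling of the reads would give. At 20 to 39 counts (570 tiles) it was still 6.71 times. In the 457 single-position tiles with a mean sperm level between 20% and 80%, the ratio was 6.43 between the zygote libraries and 2.16 between the sperm libraries. The zygote level did not fall with depth and averaged 58.05%, 61.2% and 61.4% in the 3 count classes. Each zygote library holds 40 to 50 embryos and reads carry no molecular identifiers. The part of cell number and of amplification in this spread was not tested.

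Adjacent tiles were more alike within a zygote library than across the libraries, which did not hold at larger distances. For 536 pairs of adjacent sperm-methylated tiles, which the same reads can span, r was 0.53 and 0.61 within the zygote libraries. It was 0.19 and 0.21 when 1 tile was read in replicate 1 and its neighbour in replicate 2. For 90 pairs more than 100 and up to 500 bp apart r was -0.02 and 0.33 within and 0.09 and 0.24 across libraries. For 105 pairs more than 500 and up to 2000 bp apart it was 0.12 and 0.01 within and 0.18 and 0.15 across. For 464 pairs more than 2 and up to 10 kb apart these values were 0.01 and 0.05 within and 0.07 and 0.12 across libraries. For 4082 pairs more than 10 and up to 100 kb apart all 4 values lay between -0.02 and 0.03.

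All autosomes were lower in zygotes. On all 19 autosomes both zygote libraries lay below both sperm libraries at sperm-methylated tiles (204 to 562 tiles each). The mean zygote level ran from 56.8% ± 1.17 (SD, n = 2) on chromosome 18 to 61.5% ± 0.0503 on chromosome 1, and single libraries ran from 55.5% to 61.99%. The median gap between the 2 zygote libraries on the same autosome was 1.79 points, so most neighbours in the order of the autosomes do not differ beyond the replicate spread. Spearman's rho between the replicates over the 19 autosome levels was 0.26.

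Distance from the nearest tile unmethylated in sperm was taken as a measure of the flanks of CpG islands. Sperm-methylated tiles within 1 kb of such a tile (105 tiles) kept 63.4% ± 3.73 (SE) of the sperm level. Those 1 to 10 kb away (619 tiles) kept 58.4% ± 0.237, with zygote libraries at 56.6% and 56.2%. Those beyond 10 kb (6093 tiles) kept 61.4% ± 0.0220, with zygote libraries at 59.4% and 59.5%. Both zygote libraries were thus lower in the 1 to 10 kb class than beyond 10 kb. The contrast was chosen after the data had been seen and was not tested.

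Single tiles were tested with edgeR's quasi-likelihood test on methylated and unmethylated counts, with Benjamini-Hochberg adjustment over all 21736 tiles. At an adjusted p below 0.05, 2822 tiles (13.0%) were lower in WT zygotes and 250 (1.15%) were higher. Of these, 2797 (12.9% of all tiles) were lower and 206 (0.948%) were higher by at least 20 points. Without any test, both zygote libraries lay below both sperm libraries in 7252 tiles (33.4%) and above them in 683 (3.14%). The calls require all 4 libraries: none was left without sperm replicate 1, sperm replicate 2, WT zygote replicate 1 or WT zygote replicate 2, with 1268, 1337, 4409 and 4742 tiles at an unadjusted p below 0.05. None was left either when edgeR was given a dispersion of 0.482, common to all tiles, in place of 0. A spread per tile was still fitted at this setting, so it is not the same model with 1 shared spread. It had 3047 tiles at an unadjusted p below 0.05, while limma called 1448 lower and 149 higher.

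Of the tiles methylated in sperm, 2536 of 6817 (37.2%) were called lower. The class is high in sperm by choice and has little room to rise, so this share says nothing about direction. Both zygote libraries lay below both sperm libraries in 4686 of them (68.7%). The called share was 26.2% in tiles with 1 CpG, 45.8% with 2 to 3 and 49.8% with 4 to 7, and it was 5 of the 6 densest tiles. The median count per tile over the 4 libraries moved with it, at 95, 150 and 242.5 in the first 3 classes and 673 in the densest, and the part of depth in these shares was not tested. Of the tiles in neither class, 286 of 3947 (7.25%) were called lower and 28 (0.709%) higher. The median difference over the called lower tiles was -55.8 points, against -36.8 points over all sperm-methylated tiles and -1.11 points over all tiles. No methylated count was left in either zygote library in 135 of the called lower tiles.

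Tiles are named here from those with at least 20 counts in each library. Among these, the tiles with the largest falls went from full methylation in sperm to none in zygotes. On chromosome 9 at 108364601 to 108364700 (4 CpGs) both sperm libraries were at 100% (20 counts each) and both WT zygote libraries at 0% (32 and 40 counts; edgeR, adjusted p = 2.25e-05). The deepest position there had 18 zygote counts, so 0 methylated counts allow a level of up to 16.7%. On chromosome 1 at 182619601 to 182619700 (2 CpGs) sperm was at 100% in both libraries (26 counts each) and WT zygotes at 0% (22 and 20 counts; adjusted p = 8.68e-05), which allows up to 14.3%. On chromosome 10 at 80459401 to 80459500 (3 CpGs) sperm was at 100% (24 and 21 counts) and WT zygotes at 0% (24 counts each; adjusted p = 8.81e-05). These upper limits are 3 counts of the zygote counts at the deepest position of the tile and cover counting error only.

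Further tiles with large falls were at or near 0% in both WT zygote libraries. On chromosome 9 at 77275401 to 77275500 (4 CpGs) sperm was at 94.7% and 100%, and WT zygotes were at 0% in both libraries (24 counts each; edgeR, adjusted p = 8.95e-07). On chromosome 6 at 82644801 to 82644900 (3 CpGs) sperm was at 89.9% and 98.1% and WT zygotes at 0% (27 and 30 counts; adjusted p = 1.84e-06). On chromosome 11 at 11855501 to 11855600 (2 CpGs) sperm was at 98.5% and 100% and WT zygotes at 6.82% and 0% (adjusted p = 7.04e-07).

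The 5 CpG-dense tiles named among those that fell had mean zygote levels from 33.2% to 79.0%. On chromosome 15 at 100630201 to 100630300 (8 CpGs) sperm was at 98.8% and 98.5% and WT zygotes at 72.5% and 78.9% (120 and 76 counts; edgeR, adjusted p = 0.00698). On chromosome 1 at 166753301 to 166753400 (8 CpGs) sperm was at 97.6% and 98.6% and WT zygotes at 75.4% and 82.6% (256 and 184 counts; adjusted p = 0.000211). On chromosome 5 at 122022701 to 122022800 (9 CpGs) sperm was at 98.9% and 93.9% and WT zygotes at 62.2% and 74.6% (adjusted p = 0.0143). On chromosome 4 at 117357601 to 117357700 (8 CpGs) the zygote libraries disagreed, with 66.5% of 170 counts and 0% of 50 counts against 93.03% and 89.5% in sperm (adjusted p = 0.000137). On chromosome 11 at 108803401 to 108803500 (8 CpGs) sperm was at 75.3% and 78.6% and WT zygotes at 23.4% and 44.7% (adjusted p = 0.0198). With limma only the tile on chromosome 15 of these 5 passed. The adjusted p was 0.215 on chromosome 4, 0.103 on chromosome 11, 0.0836 on chromosome 5 and 0.0515 on chromosome 1. The tile on chromosome 4 did not pass with the likelihood ratio test either (adjusted p = 0.208), nor that on chromosome 11 at a count minimum of 5 (adjusted p = 0.0518).

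Some tiles were at or near full methylation in both zygote libraries. Of the 2265 sperm-methylated tiles with at least 20 counts in every library, 167 (7.37%) were at 90% or more in both WT zygote libraries. On chromosome 17 at 27177301 to 27177400 (6 CpGs) sperm was at 94.4% and 99.5% and both zygote libraries were at 100% (96 and 138 counts). On chromosome 2 at 164203601 to 164203700 (2 CpGs) sperm was at 100% and 94.7% and both zygote libraries were at 100% (34 and 68 counts). On chromosome 3 at 100824501 to 100824600 (3 CpGs) sperm was at 96.3% and 98.1% and both zygote libraries were at 100% (108 and 22 counts). The deepest positions of these 3 tiles had 39, 51 and 40 zygote counts. By the rule used for the tiles at 0%, an unmethylated share of up to 7.69%, 5.88% and 7.5% is allowed there. These tiles were picked for their high zygote levels and carry no test.

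Higher tiles came mostly from those unmethylated in sperm. Of these, 222 of 10972 (2.02%) were called higher, against 1.15% of all tiles, and a class at 10% or less can hardly be called lower. Without any test, both zygote libraries lay above both sperm libraries in 396 tiles of the class (3.61%) and below them in 446 (4.06%). The called share was 0.824% with 1 CpG, 2.12% with 2 to 3, 2.25% with 4 to 7 and 2.05% with 8 or more. The class with 1 CpG also had the lowest median count over the 4 libraries, 94 against 159 to 413.5 in the others. The median difference over all 250 higher tiles was 37.0 points, and both zygote libraries were at 90% or more in 12. Of the 222 tiles, 52 (23.4%) lay within 1 kb of another called higher tile and 20 (9.01%) within 10 kb of a sperm-methylated tile. The same held for 178 (1.62%) and 980 (8.93%) of all tiles unmethylated in sperm. The same reads can span adjacent tiles, so called tiles within 1 kb of each other are not independent. The part of shared reads in the 23.4% was not tested.

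Part of the higher mean came from few tiles. Both zygote libraries were at 20% or more in 144 of the tiles unmethylated in sperm (1.31%), of which 111 were called. The other tiles of the class averaged 1.45% and 1.37% in the zygote libraries, still above the class mean of 0.530% in sperm. The tiles set apart were picked on their zygote level, so this is a description. The level of such tiles recurred in part between libraries. The 409 tiles at 20% or more in replicate 1 (mean 41.6%) averaged 18.5% in replicate 2, and the 384 tiles at 20% or more in replicate 2 (mean 40.3%) averaged 20.9% in replicate 1.

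Among the tiles with at least 20 counts in each library, the largest rise lay on chromosome 8 at 25706001 to 25706100 (4 CpGs), with 0% and 2.70% in sperm and 93.7% and 96.97% in WT zygotes (63 and 99 counts; edgeR, adjusted p = 1.77e-15). On chromosome 5 at 72559401 to 72559500 (6 CpGs) sperm was at 0% in both libraries (60 and 36 counts) and WT zygotes at 87.5% and 75.0% (adjusted p = 8.67e-06). On chromosome 7 at 90943001 to 90943100 (3 CpGs) sperm was at 0% and 4.17% and WT zygotes at 71.4% and 88.9% (adjusted p = 4.94e-05).

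CpG-dense tiles were among the risers as well. On chromosome 13 at 54676701 to 54676800 (11 CpGs) sperm was at 0% (111 and 155 counts) and WT zygotes at 59.8% and 53.2% (92 and 79 counts; edgeR, adjusted p = 4.22e-07). On chromosome 14 at 32308201 to 32308300 (8 CpGs) sperm was at 0% (78 and 60 counts) and WT zygotes at 63.9% and 42.9% (adjusted p = 0.000104). On chromosome 2 at 102241001 to 102241100 (16 CpGs) sperm was at 0% (107 and 53 counts) and WT zygotes at 40.0% and 48.6% (adjusted p = 0.000449). In all 3 the zygote libraries lay far above the sperm libraries.

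**Figure D5:**
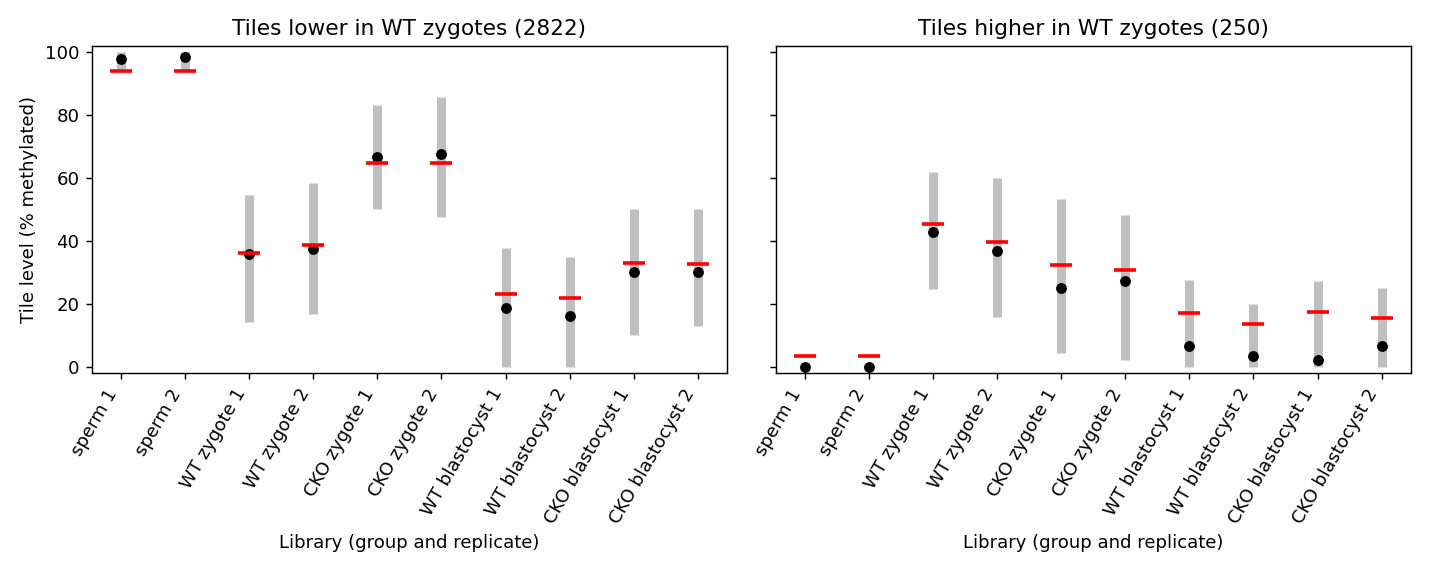
Tile level (vertical axis, % methylated) in all 10 libraries (horizontal axis, group and replicate) for the 2822 tiles called lower (left) and the 250 called higher (right) in WT zygotes. Points are medians, red dashes means and grey bars the middle 50% of tiles with at least 10 counts in the library. The tiles were chosen on the sperm and WT zygote libraries, and the higher tiles have means of 45.4% and 39.6% in WT zygotes and of 13.5% to 17.5% in the 4 blastocyst libraries.

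In the 6 libraries that took no part in the choice, the called tiles had these levels. The tiles called lower averaged 36.02% and 38.6% in WT zygotes, on which they were chosen, and 64.7% and 64.9% in CKO zygotes (2471 and 2425 tiles with at least 10 counts). Over all sperm-methylated tiles, not chosen on zygotes, the levels were 59.3% and 59.2% in WT zygotes and 70.7% and 70.6% in CKO zygotes. In blastocysts the tiles called lower averaged 23.3% and 22.0% (WT) and 33.04% and 32.5% (CKO). All sperm-methylated tiles averaged 28.8% and 27.6% in WT blastocysts and 36.6% and 36.0% in CKO blastocysts. The tiles called higher averaged 32.3% and 30.7% in CKO zygotes (219 and 228 tiles), 17.1% and 13.5% in WT blastocysts and 17.5% and 15.6% in CKO blastocysts. Over all tiles unmethylated in sperm the same 6 libraries averaged 1.42% to 2.35%, so the mean of the higher tiles was above that level in every library. In the 4 blastocyst libraries a minority carried it, with medians of 6.67%, 3.40%, 2.04% and 6.58% and lower quartiles of 0%. A tile chosen for an extreme level tends to read closer to the middle in any other library, and no comparison between groups was made on these tiles.

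The count minimum that defines the tiles had little effect at its edge. Tiles whose lowest count was 10 or 11 (2862 tiles) averaged 55.3% in sperm and 33.3% in WT zygotes. Tiles just left out, with a lowest count of 8 or 9 (4419 tiles), averaged 54.2% and 33.1%.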

How the data were processed

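Per the submitters' processing notes, the tools were Trim Galore and Bismark 0.10.1 and the genome build was mm9. Their settings, and how strands and parental alleles were handled, were not given in the sources read here. The deposited files give, per cytosine position, methylated and unmethylated counts and the percent methylation, which matched methylated over total counts to 0.001 points at 100% of positions. Only the counts were used. Counts were summed over 100-bp autosomal tiles with at least 10 counts in each of the 4 libraries, and adjacent positions were joined as the strands of 1 CpG. A tile level is methylated over all counts, and group values are means over tiles per library. The test of single tiles was edgeR's quasi-likelihood test (version 4.0.16, R 4.3.3), with dispersion 0 and each library's depth as a term, and the script was tested on simulated data. Those data had the same spread in both groups, while the zygote libraries here differed more from each other than the sperm libraries did. limma 3.58.1 and Fisher's exact test were alternatives. The members, classes and tests were chosen with earlier results of these data known. Named tiles were passing tiles whose groups did not overlap, with at least 20 counts in each library and at most 1 per 10 kb. They were the 8 largest differences in each direction, and the 5 largest among tiles with 8 or more CpGs. A further 5 were the sperm-methylated tiles highest in the lower zygote library, and some of each set are described. The gene and promoter tables at hand describe GRCm38, so no tile was assigned to a gene and no sequence is shown.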

Additional observations from a re-analysis of the deposited data

How the results depend on the processing

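The loss at sperm-methylated tiles ranged from -38.8 to -35.5 points and the difference at sperm-unmethylated tiles from 1.12 to 1.57 points over all alternatives run. Leaving out 1 library moved them to between -37.6 and -37.5 and to between 1.44 and 1.56 points. The difference between dense and sparse tiles ranged from 1.62 to 12.1 points, and from 0.370 to 8.55 points with 1 library left out. The difference over all tiles ranged from -17.2 to -9.22 points, and from -14.3 to -14.1 points with 1 library left out. The number of passing tiles depends on the test. Of lower and higher tiles, limma called 1448 and 149, Fisher's exact test on the summed replicates 7601 and 1114, single positions 850 and 38, and a fit of all 10 libraries 1032 and 105 of 7495 tiles tested. A count minimum of 20 gave 1370 lower tiles of 10654 tested, and a minimum of 5 gave 163 higher tiles. A dispersion common to all tiles in edgeR (0.482 in place of 0, with a spread per tile still fitted) called 0 and 0. It had 3047 tiles at an unadjusted p below 0.05. Leaving out sperm replicate 1, sperm replicate 2, WT zygote replicate 1 or WT zygote replicate 2 also gave 0 and 0, with 1268, 1337, 4409 and 4742 tiles at an unadjusted p below 0.05. The lone library is then assumed to vary like the other group. With the replicate number as a block the counts were 2313 and 188. The difference between the sperm replicates and that between the zygote replicates had a correlation of 0.0087 over tiles. The sperm replicates differed little (median absolute difference 0.637 points), so this value cannot tell whether the numbers pair the libraries. Each of the 25 tiles named for passing lost its call with the common dispersion and with any library left out, and all kept their direction. The cause of these differences was not tested.

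With bins set on sperm replicate 1 and read in the other, the share kept was 56.5% in the bin of 20 to 40%, 60.7% in that of 80 to 90% and 61.5% in that of 90 to 100%. With bins set on replicate 2 it was 69.2% in the bin of 10 to 20% and 61.4% in that of 90 to 100%. In the lowest bin the difference was 1.12 and 1.20 points.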

Other observations

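Tiles of the X chromosome were outside the autosomal set, and 164 of them met the same count minimum. The 38 at 80% or more in both sperm replicates averaged 96.1% and 95.9% in the sperm libraries and 65.4% and 65.9% in the WT zygote libraries. Both zygote values lay above those of every single autosome, which ran from 55.5% to 61.99%. The X tiles kept 68.4% ± 0.276 (SE) of the sperm level. This SE is over libraries only and leaves out the spread over the 38 tiles. The 85 X tiles at 10% or less in both sperm replicates averaged 0.436% ± 0.0521 in sperm and 2.65% ± 0.179 in WT zygotes (SD, n = 2 each). The difference between the X chromosome and the autosomes was not tested.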
